A study of Mus musculus with 9 samples.

Results

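A small set of 19 protein-coding genes had few or no counts in freshly isolated naive CD4+ T cells and was counted in such cells after 20 h of culture. The genes were chosen by their expected counts, which had to sum to at most 10 over 3 libraries of fresh cells and to at least 60 over 3 libraries of cells cultured without IL-1b. Expected counts are read counts in which the quantifier divides a read among the genes it matches. For 4 of the 19 genes (Exosc6, Gcat, Gm26920 and Gm45234), which share 83.1 to 100% of their sequence with other genes, silence in fresh cells cannot be told apart from reads assigned to a neighbour. The set was drawn from 21974 protein-coding genes among 55487 gene identifiers, and 10122 of the protein-coding genes had at most 10 counts in fresh cells. Because these counts chose the genes (19 of 19 are higher in cultured cells by construction, where 29.4% of all 13043 genes tested were called higher), their levels in cultured and fresh cells are given as a description with no test. The libraries with IL-1b took no part in the choice, whereas the cultured libraries did, and the test of IL-1b-treated against cultured cells is the only one given for these genes.

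Polyadenylated RNA was sequenced from naive CD4+ T cells, helper T cells that have not yet met antigen, which were taken from lymph nodes. All mice were WT and of strain C57BL6/J. There were 3 libraries each of cells kept 20 h with 10 ng/mL of recombinant IL-1b (IL-1b-treated), of cells kept as long without IL-1b (cultured) and of cells taken directly (fresh). The labels give no age or sex of the mice and no culture medium, and they do not say whether replicates came from separate animals or cultures, so that p-values may measure technical spread only.

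Naive T cells are kept alive and quiescent in the lymph node by interleukin 7 and by contacts with stromal cells. Interleukin-1 beta is an inflammatory cytokine made mainly by myeloid cells, which signals through its receptor to the NF-kB pathway. The 19 genes belong to no single pathway. They include a feedback inhibitor of cytokine signalling (Socs2), a steroid-metabolising enzyme (Akr1c18), a basement membrane chain (Lama5), an adhesion protein (Mpzl2), a protein kinase (Dyrk4), transporters and a channel (Slc7a8, Slc7a11, Abcb11, Kcnh4), a translational regulator (Patl2) and several genes of unknown role.

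Promoters of the set were read from RefSeq (GRCm38.p6), whose table held 14 promoters for 13 of the 19 genes. Socs2, Mpzl2, Gm10134, Gm26920 and Gm45234 had no entry, and the entry under the symbol Gcat, which the member shares with another gene identifier, was not used. Each window ran from 250 bases before to 50 bases after the start. The 250 bases before the start are printed for 4 genes, of which Slc7a11 carried the most motif matches, and Akr1c18, Dyrk4 and Lama5 show the range of base composition within the set. Capitals mark matches to any of 7 motifs, and the letters run 5′ to 3′ on the gene's strand, which is the minus strand for all 4. The regions are chr3:50443614-50443863 for Slc7a11, chr13:4150647-4150896 for Akr1c18, chr6:126921840-126922089 for Dyrk4 and chr2:180225860-180226109 for Lama5.
Slc7a11: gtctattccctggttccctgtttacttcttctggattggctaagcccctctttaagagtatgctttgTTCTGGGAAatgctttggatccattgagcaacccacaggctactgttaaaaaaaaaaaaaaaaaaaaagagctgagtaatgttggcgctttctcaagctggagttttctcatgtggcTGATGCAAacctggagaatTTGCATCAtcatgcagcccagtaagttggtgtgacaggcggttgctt
Akr1c18: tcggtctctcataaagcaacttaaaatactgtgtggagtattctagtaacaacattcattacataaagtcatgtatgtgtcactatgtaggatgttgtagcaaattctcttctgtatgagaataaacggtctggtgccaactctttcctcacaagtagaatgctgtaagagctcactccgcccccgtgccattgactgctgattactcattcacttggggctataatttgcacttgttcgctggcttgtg
Dyrk4: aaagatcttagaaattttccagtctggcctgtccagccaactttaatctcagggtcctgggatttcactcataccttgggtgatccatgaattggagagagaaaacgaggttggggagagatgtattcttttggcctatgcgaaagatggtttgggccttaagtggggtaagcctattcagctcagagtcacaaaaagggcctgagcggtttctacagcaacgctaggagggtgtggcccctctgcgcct
Lama5: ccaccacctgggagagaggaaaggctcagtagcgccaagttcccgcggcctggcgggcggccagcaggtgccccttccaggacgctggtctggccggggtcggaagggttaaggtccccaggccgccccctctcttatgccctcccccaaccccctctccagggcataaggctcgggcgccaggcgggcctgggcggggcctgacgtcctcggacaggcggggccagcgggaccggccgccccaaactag

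The 7 motifs were searched on both strands without overlap between the matches found, and no motif was common to the set. The C/EBP-ATF response element, searched as TGATGNAA, matched 2 times in the Slc7a11 window, as TGATGCAA at -66 and as its reverse complement TTGCATCA at -47. Slc7a11 is a textbook target of the stress-responsive factor ATF4, which binds such elements. Of the 14 promoters of the set, 1 held this element, that of Slc7a11, against 3.97% of all 32851 promoters. The STAT site, searched as TTCNNNGAA, matched in 2 of 14 promoters, against 8.30% of all. The Slc7a11 match read TTCTGGGAA and began at -183, and the other lay in the Exosc6 promoter. The E-box, CACGTG, stood in the windows of AA467197 and Kcnh4, 2 of 14 against 7.15% of all. The AP-1 site, searched as TGANTCA, matched in AA467197 and Gm973, 2 of 14 against 7.81% of all. The antioxidant response element core, searched as TGACNNNGC, matched in Patl2, 1 of 14 against 12.4% of all. The TATA box, TATAAA, matched in 0 of 14 promoters, against 13.6% of all. The cyclic AMP response element, TGACGTCA, likewise matched in 0 of 14, against 1.79% of all. A match is a description of letters and does not show a bound site.

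The promoters were mixed in base composition. They held a median of 19 CpG dinucleotides in 300 bases with a range of 4 to 37, against medians of 14 over the promoters of protein-coding genes and 7 over all promoters. The windows of Slc7a11 and Abcb11 held 4 CpG each and those of Akr1c18 and Dyrk4 held 5 each, whereas that of Lama5 held 24. Promoters with at most 5 CpG thus numbered 4 of 14, against 30.7% of protein-coding promoters. By position, 5 of the 19 genes lie on chromosome 2 (AA467197, Abcb11, Gm10134, Lama5 and Patl2), which carries 8.03% of the 10114 protein-coding genes with at least 60 counts in cultured cells.

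Libraries held 13518814 to 23056686 counts. A floor of 3 counts in a library corresponded to 0.124 to 0.215 CPM, where CPM are counts scaled to equal effective library totals. Replicate 3 of the IL-1b-treated cells was set off on the third principal component (6.37% of the variance), with a score of -39.6, where replicates 1 and 2 scored 14.0 and 19.8. The 7 markers of naive CD4+ T cells (Cd3e, Cd3d, Cd4, Ccr7, Lef1, Tcf7, Il7r) were counted in all groups, as the label says, and summed to 3588 to 3637 CPM in IL-1b-treated, 3639 to 3698 CPM in cultured and 4605 to 4686 CPM in fresh cells. B cell markers fell in cultured against fresh cells, 7 of 7, where 28.9% of all genes tested were called lower, and summed to 8.32 to 10.6 CPM in IL-1b-treated, 8.53 to 11.1 CPM in cultured and 127 to 169 CPM in fresh cells. In these bulk libraries fewer cells of a type and less RNA per cell cannot be told apart.

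Summed over the 19 genes, the level was 58.8, 62.9 and 79.2 CPM in IL-1b-treated, 56.8, 61.5 and 67.1 CPM in cultured and 0.839, 1.07 and 1.70 CPM in fresh libraries. The sum with IL-1b thus overlapped that of cultured cells, and its highest value was that of IL-1b-treated replicate 3, where 9 of the 19 genes had their highest IL-1b-treated value. Of the 19 genes, which the choice put at 60 or more counts in cultured cells, 15 also reached 60 counts over the IL-1b-treated libraries. That count is a description, with no share over all genes beside it. Levels stayed modest. Per length, in TPM, which divide counts by transcript length, the means of the 19 genes in cultured cells ran from 0.227 TPM for Slc7a11 to 9.13 TPM for Exosc6, and 0 of 19 exceeded the median of 11.7 TPM over 13865 protein-coding genes detected there. After Exosc6 the order was Socs2 at 7.25 TPM, Akr1c18 at 6.67 TPM, Dyrk4 at 6.06 TPM, AA467197 at 5.23 TPM and Gm973 at 4.57 TPM. The replicate ranges of each of these neighbours in the order overlapped.

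**Figure D1:**
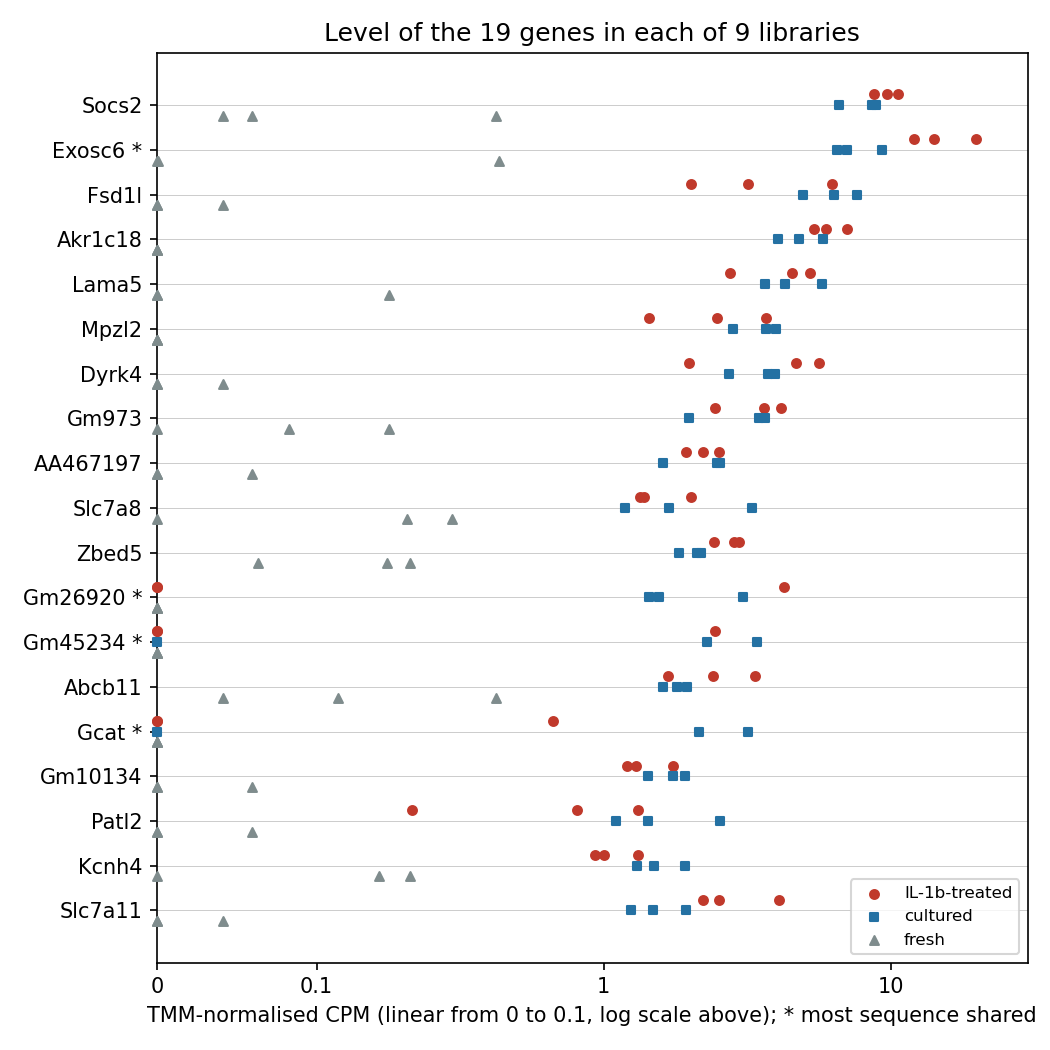
Level of each of the 19 genes (rows) in TMM-normalised CPM on an axis that is linear up to 0.1 and logarithmic above, with 1 point for each of 3 libraries per group (IL-1b-treated circles, cultured squares, fresh triangles); an asterisk marks 4 genes that share most of their sequence with other genes. Fresh libraries sit at or near 0 because their counts chose the genes, and IL-1b-treated and cultured points interleave for 16 of the 19 genes.

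Between IL-1b-treated and cultured cells, 1 of the 19 genes passed an adjusted p of 0.05 (quasi-likelihood F test of edgeR, Benjamini-Hochberg adjusted over 13043 genes). Over all genes tested 28.9% passed (15.6% higher and 13.3% lower in IL-1b-treated cells). Of the 3572 genes in the same range of average level over all 9 libraries only 5.21% did, and 1 of 19 is close to that share. The average includes the fresh libraries, where the 19 genes were chosen to be low. The 3572 genes are thus not matched to them by level in the 2 groups compared. All 19 genes were tested, having passed the filter on low counts through the cultured and IL-1b-treated groups. The log2 fold change, IL-1b-treated over cultured, was above 0 for 9 genes and its median was -0.14, against -0.01 over all genes tested. These 2 medians are not comparable, because the choice asked for high counts in cultured cells. That choice favours lower fold changes of IL-1b-treated over cultured cells, for single genes below as well, by an amount that was not tested. Replicates of the 2 groups did not overlap in CPM for 3 genes, Exosc6, Zbed5 and Slc7a11, against 40.3% of all genes tested. The gene that passed, Exosc6, is one of 4 that share most of their sequence with other genes. Of the 15 others, 0 passed in edgeR (1 at an unadjusted p under 0.05) and 0 in DESeq2, and 1, Patl2, passed in limma on log2(TPM + 0.5). Their log2 fold changes ran from -1.09 to 0.92 with standard errors of 0.23 to 0.61. At the largest of these errors a 2-fold change lies within 2 standard errors of 0, so that a change of that size was not detectable for every gene at this depth.

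**Figure D2:**
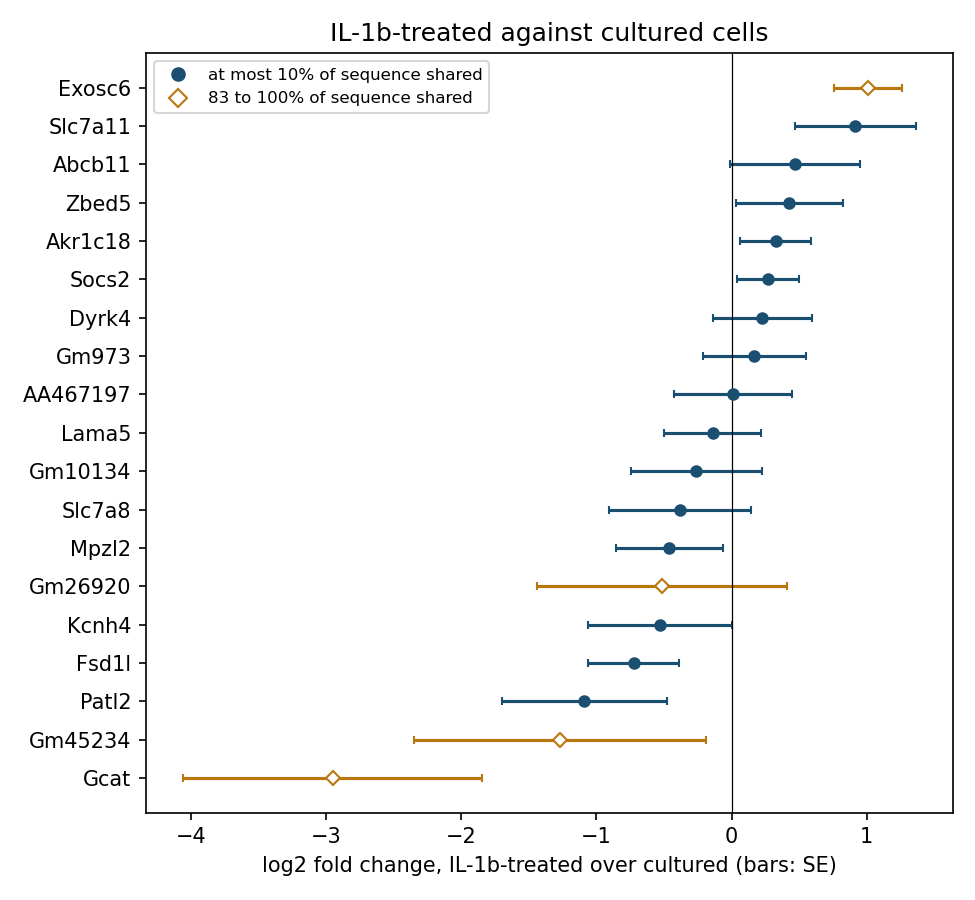
Log2 fold change of each of the 19 genes (rows), IL-1b-treated over cultured, from the edgeR fit over all 9 libraries, with bars of 1 standard error; filled circles are genes that share at most 10% of their sequence with another gene and open diamonds are the 4 that share 83.1 to 100%. Exosc6 at 1.01 is the gene that passed the threshold, and the estimates of the other 18 fall on both sides of 0.

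The cytokine feedback gene of the set was Socs2, which is induced by STAT5 downstream of cytokines such as interleukin 7 and growth hormone and damps their receptors. Socs2 (chr10:95385362-95417180, minus strand, mm10) had 9.74, 10.6 and 8.79 CPM in IL-1b-treated, 8.86, 6.62 and 8.64 CPM in cultured and 0.0413, 0.0594 and 0.422 CPM in fresh cells. Of its 8 counts in fresh cells 6 lay in fresh replicate 3. IL-1b-treated and cultured libraries overlapped, with a log2 fold change of 0.27 ± 0.23 (SE) and an adjusted p of 0.428. Among 8 tested genes of T cell activation, Il2ra, the high-affinity chain of the interleukin 2 receptor, rose in cultured against fresh cells by 4.62 ± 0.15 on the log2 scale (adjusted p 3.64e-17), and the costimulatory receptor Tnfrsf4 rose by 3.15 ± 0.13 (adjusted p 1.92e-15). The other activation genes that passed fell: Cd69, Cd44, Nr4a1, Egr2 and Tnfrsf9, with Nr4a1, an early target of the antigen receptor, at -3.58 ± 0.16 (adjusted p 1.03e-14). Thus 2 of the 8 were called higher and 5 lower, where 29.4% and 28.9% of all genes tested were, and the 2 higher are near that share.

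Dyrk4, a dual-specificity tyrosine-regulated kinase known mainly from testis, lies at chr6:126876020-126921839 on the minus strand. It had 1.98, 4.67 and 5.64 CPM in IL-1b-treated and 2.74, 3.96 and 3.74 CPM in cultured cells, and 1 count in the 3 fresh libraries. The IL-1b-treated libraries spanned the cultured range on both sides, and the log2 fold change was 0.23 ± 0.37 (adjusted p 0.704). Its relatives were counted in all groups. Of 6 tested DYRK and HIPK kinases outside the set, 1 rose and 2 fell in cultured against fresh cells, and 4 fell in IL-1b-treated against cultured cells. Over all genes tested 29.4% were called higher and 28.9% lower in the first comparison and 13.3% lower in the second. Over the 20 other settings 1 to 3 of the kinases were higher and 1 to 4 lower in the first, and 1 to 5 lower in the second. All genes tested showed a trend with transcript length in the second comparison. Of 5 bins of length, the shortest had a median log2 fold change of 0.24 and the longest of -0.14. Removal of that trend is among the settings, but its part in the family counts was not tested. Hipk2, a kinase of the DNA damage response, rose in cultured against fresh cells by 1.40 ± 0.07 (adjusted p 1.47e-13) and fell in IL-1b-treated against cultured cells by 0.46 on the log2 scale (SE 0.07, adjusted p 2.96e-05), and kept both directions and calls in all 20 other settings. Dyrk2 fell by 0.17 (SE 0.04, adjusted p 0.00137) in cultured against fresh cells.

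Akr1c18 encodes 20-alpha-hydroxysteroid dehydrogenase, which inactivates progesterone and has long been known as an enzyme activity of T cells. The gene (ENSMUSG00000021214, chr13:4132615-4150654, minus strand) had 5.41, 5.96 and 7.05 CPM in IL-1b-treated cells, 4.04, 5.82 and 4.79 CPM in cultured cells and 0 counts in each fresh library. Its 278 counts with IL-1b and 233 without correspond to levels 113-fold and 90.2-fold the floor, taken as 3 counts for the fresh group as a whole. Because the counts in fresh and cultured cells chose the gene, these ratios are a description and no bounds. IL-1b-treated and cultured libraries overlapped narrowly (log2 fold change 0.33 ± 0.26, adjusted p 0.399), and the value was -0.0013 on the log2(TPM + 0.5) scale, where the median of all genes was -0.28. Akr1c18 shares 0.581% of its 50-base windows with another gene, Akr1cl, which was at 0 in all libraries.

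Several other aldo-keto reductases already had counts in fresh cells. Of 7 tested members outside the set, 6 rose and 0 fell in cultured against fresh cells, and 4 rose and 0 fell in IL-1b-treated against cultured cells, where 29.4% and 15.6% of all genes tested were called higher. Over the 20 other settings the first count ranged from 4 to 6 higher and 0 to 1 lower, and the second from 1 to 4 higher and 0 to 1 lower. The trend with transcript length given for the kinases applies to the second comparison here too, and its part in the count was not tested. Akr1c12, the neighbour family member with the largest change, averaged 10.6 CPM in IL-1b-treated, 5.93 CPM in cultured and 1.95 CPM in fresh cells. It rose by 1.61 ± 0.22 on the log2 scale in cultured against fresh cells (adjusted p 1.18e-06) and by 0.84 ± 0.19 in IL-1b-treated against cultured cells (adjusted p 0.00184), and passed in all settings. Akr1c13 rose by 0.74 ± 0.15 and 0.42 ± 0.14 in the same comparisons (adjusted p 0.000139 and 0.0273). With the main fit included, the first call held in 19 of 21 settings. The second held in 14 of 21, with log2 fold changes of 0.02 to 0.51. Expected counts of Akr1c12 and Akr1c13 were not whole numbers, so some of their reads were divided among genes. Their shared sequence was not measured. Of 17 listed members, 7 had 0 counts in every library.

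Lama5 and Mpzl2 encode cell-contact proteins. Lama5 is the alpha 5 chain of laminin, a large heterotrimer of basement membranes that also lies around lymph node stroma. The gene (ENSMUSG00000015647, chr2:180176373-180225859, minus strand) had 2.77, 4.52 and 5.23 CPM in IL-1b-treated and 4.30, 3.65 and 5.79 CPM in cultured cells, and 3 counts, all in replicate 2, in fresh cells. IL-1b-treated and cultured libraries overlapped (log2 fold change -0.14 ± 0.36, adjusted p 0.823), and the sign turned to 0.10 without IL-1b-treated replicate 1 and to 0.07 without cultured replicate 3.

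Of the other laminin chains 2 were tested. Lamb3, a beta chain, rose in cultured against fresh cells by 1.13 ± 0.19 (adjusted p 1.89e-05) and averaged 11.9 CPM in IL-1b-treated, 11.9 CPM in cultured and 5.38 CPM in fresh cells. Lamc1, the gamma chain that pairs with alpha 5 in the common laminins, had a log2 fold change of 0.94 ± 0.46 in that comparison and did not pass (adjusted p 0.0824). Lamb1 and Lamb2, the usual beta partners of alpha 5, had 2 and 40 counts in IL-1b-treated, 1 and 9 in cultured and 0 and 8 in fresh cells. Of 5 tested receptors for laminin 4 rose and 0 fell in cultured against fresh cells (29.4% of all genes tested were called higher), namely the integrin chains Itga6, Itga7 and Itgb1 and dystroglycan (Dag1). Itga6 rose by 0.82 ± 0.03 (adjusted p 8.08e-16) and Itga7 by 1.23 ± 0.16 (adjusted p 8.19e-07). In IL-1b-treated against cultured cells 1 rose, Itgb1, and 2 fell, Itga6 and Dag1, and in 2 of the 20 other settings the sign for Itgb1 turned, to -0.03 at the lowest.

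Mpzl2, also called epithelial V-like antigen, is an immunoglobulin-family adhesion protein known from thymic epithelium and other epithelia. The gene (ENSMUSG00000032092, chr9:45039799-45054015, plus strand) had 2.48, 1.44 and 3.69 CPM in IL-1b-treated cells, 3.69, 3.99 and 2.83 CPM in cultured cells and 0 counts in all fresh libraries. Set against 3 counts, the floor for the fresh group, the level was 47.1-fold that floor with IL-1b and 64.4-fold without it, again as a description. The log2 fold change with IL-1b was -0.46 ± 0.40 (adjusted p 0.435), the highest IL-1b-treated library lying within the cultured range. On the opposite strand Gm48840 overlaps 30.7% of its exon bases and had 11.7, 11.5 and 2 counts in IL-1b-treated, cultured and fresh cells, and the strand setting of the counting is not given in the sources used here. Mpzl3, the tested relative, stayed at 17.9, 19.8 and 20.3 CPM in IL-1b-treated, cultured and fresh cells and passed in neither comparison.

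Markers of epithelium were examined beside Lama5 and Mpzl2. The list of 6 summed to 2.58 to 4.67 CPM in IL-1b-treated, 2.04 to 4.05 CPM in cultured and 1.72 to 2.44 CPM in fresh cells. Krt8 and Krt5 were at 0 in all libraries. Epcam had 71, 71 and 74 counts in IL-1b-treated, cultured and fresh cells, and Cldn4 had 80, 69 and 18 counts and rose in cultured against fresh cells by 2.02 ± 0.61 (adjusted p 0.00662). Cldn4 was 1 of 2 tested, where 29.4% of all genes tested were called higher. Krt18 and Cdh1 were not tested. Krt18 had 11, 4 and 2 counts in the same order, and Cdh1 went the other way with 2, 7 and 21. The 8 fibroblast and stromal markers, 4 of them at 0 throughout, summed to at most 0.361 CPM in IL-1b-treated, 0.261 CPM in cultured and 0.845 CPM in fresh libraries, and 4 of 5 endothelial markers had at most 11 counts in any group while Pecam1, which T cells also express, rose in cultured against fresh cells by 0.44 ± 0.03 (adjusted p 5.16e-11). None of the 19 genes is in a list of another cell type, but the lists are short. Few of any 19 genes would be in them, so this does not bear on which cells the set came from. The 2 CD8 markers also moved in the direction of the set. Cd8a and Cd8b1 rose in cultured against fresh cells by 1.16 ± 0.13 and 1.10 ± 0.10 (adjusted p 1.21e-07 and 2.62e-09), and summed to 56.4 to 63.5 CPM in IL-1b-treated, 47.7 to 59.7 CPM in cultured and 23.0 to 26.5 CPM in fresh cells. The part of these genes in the levels of the set was not tested.

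Among the carriers, Slc7a11 is the catalytic chain of the cystine-glutamate exchanger xCT, which imports cystine for glutathione synthesis. Slc7a11 (chr3:49892526-50443614, minus strand) had 2.53, 4.09 and 2.22 CPM in IL-1b-treated cells, 1.24, 1.49 and 1.93 CPM in cultured cells and 1 count in the fresh libraries. In CPM all 3 IL-1b-treated libraries lay above all 3 cultured ones, whereas in TPM the groups overlapped (0.26 to 0.51 against 0.18 to 0.28). The increase in counts of 1.89-fold (log2 fold change 0.92 ± 0.45) did not pass the adjustment (p 0.136, unadjusted 0.0529). The value stayed above 0 in all 20 other settings and passed in none of them, with adjusted p-values of 0.0777 to 0.442.

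Slc7a8 (chr14:54722209-54781946, minus strand) encodes LAT2, an exchanger of neutral amino acids. It had 1.38, 2.01 and 1.34 CPM in IL-1b-treated, 1.70, 3.28 and 1.18 CPM in cultured and 0.207, 0.297 and 0 CPM in fresh cells. Cultured replicate 2 held more than the other 5 libraries of cells kept in culture, and without it the log2 fold change of -0.38 ± 0.53 (adjusted p 0.648) became 0.13. With 10 counts in fresh cells Slc7a8 stood at the limit of the choice. Abcb11 (chr2:69238282-69342616, minus strand), the bile salt export pump of hepatocytes, had 1.68, 3.37 and 2.42 CPM in IL-1b-treated, 1.96, 1.61 and 1.81 CPM in cultured and 0.0413, 0.119 and 0.422 CPM in fresh cells. Its groups with and without IL-1b overlapped (log2 fold change 0.47 ± 0.48, adjusted p 0.521). Kcnh4 (chr11:100740376-100759942, minus strand), a voltage-gated potassium channel known from brain, had 1.32, 0.934 and 1.01 CPM in IL-1b-treated, 1.499, 1.92 and 1.31 CPM in cultured and 0.165, 0 and 0.211 CPM in fresh cells. With 50 counts in IL-1b-treated cells it fell short of 60 there (log2 fold change -0.53 ± 0.53, adjusted p 0.515).

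Patl2 (chr2:122120108-122186189, minus strand) encodes an RNA-binding protein that controls translation in oocytes. It had 1.32, 0.215 and 0.805 CPM in IL-1b-treated and 1.11, 1.42 and 2.55 CPM in cultured cells, and 1 count in fresh cells. IL-1b-treated replicate 1 lay inside the cultured range and the other two below it. The log2 fold change was -1.09 ± 0.61 (adjusted p 0.199), whereas limma on log2(TPM + 0.5) gave -0.80 with an adjusted p of 0.0496. The gene lies over B2m on the opposite strand, which had 103234, 73578 and 66153 counts in IL-1b-treated, cultured and fresh cells, but 0 exon bases of the 2 genes overlap. Fsd1l (chr4:53631471-53707009, plus strand), a protein with fibronectin type III and SPRY domains, had 3.19, 2.01 and 6.24 CPM in IL-1b-treated and 4.95, 7.61 and 6.35 CPM in cultured cells, and 1 count in fresh cells. Its log2 fold change was -0.72 ± 0.34 (adjusted p 0.119). Without IL-1b-treated replicate 3, the library that stood apart, it was -1.27 with an adjusted p of 0.0101, the only setting in which Fsd1l passed. Leaving out IL-1b-treated replicate 1 or 2 instead gave -0.60 and -0.42 (adjusted p 0.270 and 0.383).

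AA467197 (chr2:122636986-122641191, plus strand) encodes a small mitochondrial protein also called Nmes1, and its transcript hosts Mir147. It had 2.52, 1.94 and 2.21 CPM in IL-1b-treated and 2.54, 1.61 and 2.49 CPM in cultured cells and 1 count in fresh cells. Its log2 fold change with IL-1b was 0.01 ± 0.44 (adjusted p 0.991). Zbed5 (chr5:129895723-129903623, plus strand), a zinc finger gene derived from a transposon, had 2.42, 2.85 and 2.96 CPM in IL-1b-treated, 1.83, 2.19 and 2.12 CPM in cultured and 0.177, 0.0636 and 0.211 CPM in fresh cells. In CPM its IL-1b-treated libraries all lay above the cultured ones, whereas in TPM the groups overlapped (1.13 to 2 against 1.07 to 1.31). The log2 fold change of 0.43 ± 0.40 did not pass (adjusted p 0.475). Zbed5 shares 7.84% of its windows with other genes, mainly Chchd2, the largest share among the 15 genes that share at most 10%. Gm973 (chr1:59516264-59636417, plus strand) and Gm10134 (chr2:28506095-28506475, plus strand) are gene models to which no role is given here. They averaged 3.40 ± 0.874 and 1.41 ± 0.288 CPM (SD, n = 3) in IL-1b-treated and 3.04 ± 0.920 and 1.70 ± 0.246 CPM in cultured cells, with 5 counts and 1 count in fresh cells. Their log2 fold changes were 0.17 ± 0.38 and -0.26 ± 0.49 (adjusted p 0.798 and 0.747).

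The remaining 4 genes, Exosc6, Gcat, Gm26920 and Gm45234, lie on loci that overlap another gene on the same strand, and 83.1 to 100% of their 50-base windows also occur in other genes. A quantifier that divides reads among matching genes has few windows to separate such a pair by. Exosc6, a core subunit of the RNA exosome (ENSMUSG00000109941, chr8:111056339-111057664, plus strand), had 14.1, 12.1 and 19.9 CPM in IL-1b-treated, 6.49, 7.03 and 9.35 CPM in cultured and 0.000827, 0 and 0.432 CPM in fresh cells. The groups did not overlap, and the counts assigned to Exosc6 rose with IL-1b by 1.01 ± 0.25 on the log2 scale (2.01-fold, adjusted p 0.00403). The call was lost without IL-1b-treated replicate 3 (0.78, adjusted p 0.0527) and on both TPM scales (0.65 and 0.62, adjusted p 0.153 and 0.0758).

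All windows of Exosc6 also occur in Aars, the alanyl-tRNA synthetase. Exosc6 took 21.7, 17.4 and 32.5% of the counts of the pair in IL-1b-treated libraries, 10.5, 12.6 and 15.97% in cultured and 0.000884, 0 and 0.428% in fresh libraries. The pair together had 65.3 ± 4.19 CPM in IL-1b-treated, 58.6 ± 3.004 CPM in cultured and 95.2 ± 5.07 CPM in fresh cells (SD, n = 3 each). The sum was thus highest in fresh cells, where Exosc6 itself was near 0. In IL-1b-treated replicate 3, where Exosc6 was highest, Aars had 41.2 CPM, against 51.1 and 57.4 CPM in replicates 1 and 2. Like the silence in fresh cells, the rise of Exosc6 with IL-1b cannot be told apart from how reads of the pair were assigned.

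The other 3 loci are annotated with readthrough transcripts, which run from one gene into the next. The Gcat locus (ENSMUSG00000116378, chr15:79030901-79042531) shares 64.3% of its windows with the main Gcat gene, which encodes an enzyme of threonine breakdown. It had 0, 0 and 0.669 CPM in IL-1b-treated, 3.18, 0 and 2.15 CPM in cultured and 0 CPM in all fresh libraries. The main Gcat gene averaged 7.49 ± 1.06 CPM in IL-1b-treated, 4.90 ± 1.79 CPM in cultured and 2.82 ± 0.819 CPM in fresh cells, and was lowest, at 3.01 CPM, in the cultured library with the highest value of the readthrough locus. The test of that locus gave a log2 fold change of -2.95 ± 1.11 (adjusted p 0.0520), and 6 of 18 other settings called it lower, among them the fits without IL-1b-treated replicate 3 (-7.89, adjusted p 0.00955, a fitted value against a group at 0) and without cultured replicate 2 (-3.53, adjusted p 0.0108). Gm26920 (chr7:30056034-30090410), which shares 86.7% of its windows with Zfp82, had 0, 0 and 4.25 CPM in IL-1b-treated and 1.56, 3.06 and 1.44 CPM in cultured cells. Gm45234 (chr6:124739189-124756021), which shares 87.9% with Atn1, had 0, 2.44 and 0 CPM in IL-1b-treated and 0, 2.30 and 3.42 CPM in cultured cells. Both were at 0 in fresh cells. For both, replicates of a group ranged from 0 to well above the floor, and leaving out the 1 IL-1b-treated library with counts decided the call: without replicate 3 Gm26920 had a log2 fold change of -8.07 (adjusted p 0.000378), and without replicate 2 Gm45234 had -8.01 (adjusted p 0.00863), fitted values against a group at 0 that are no bounds.

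**Figure D3:**
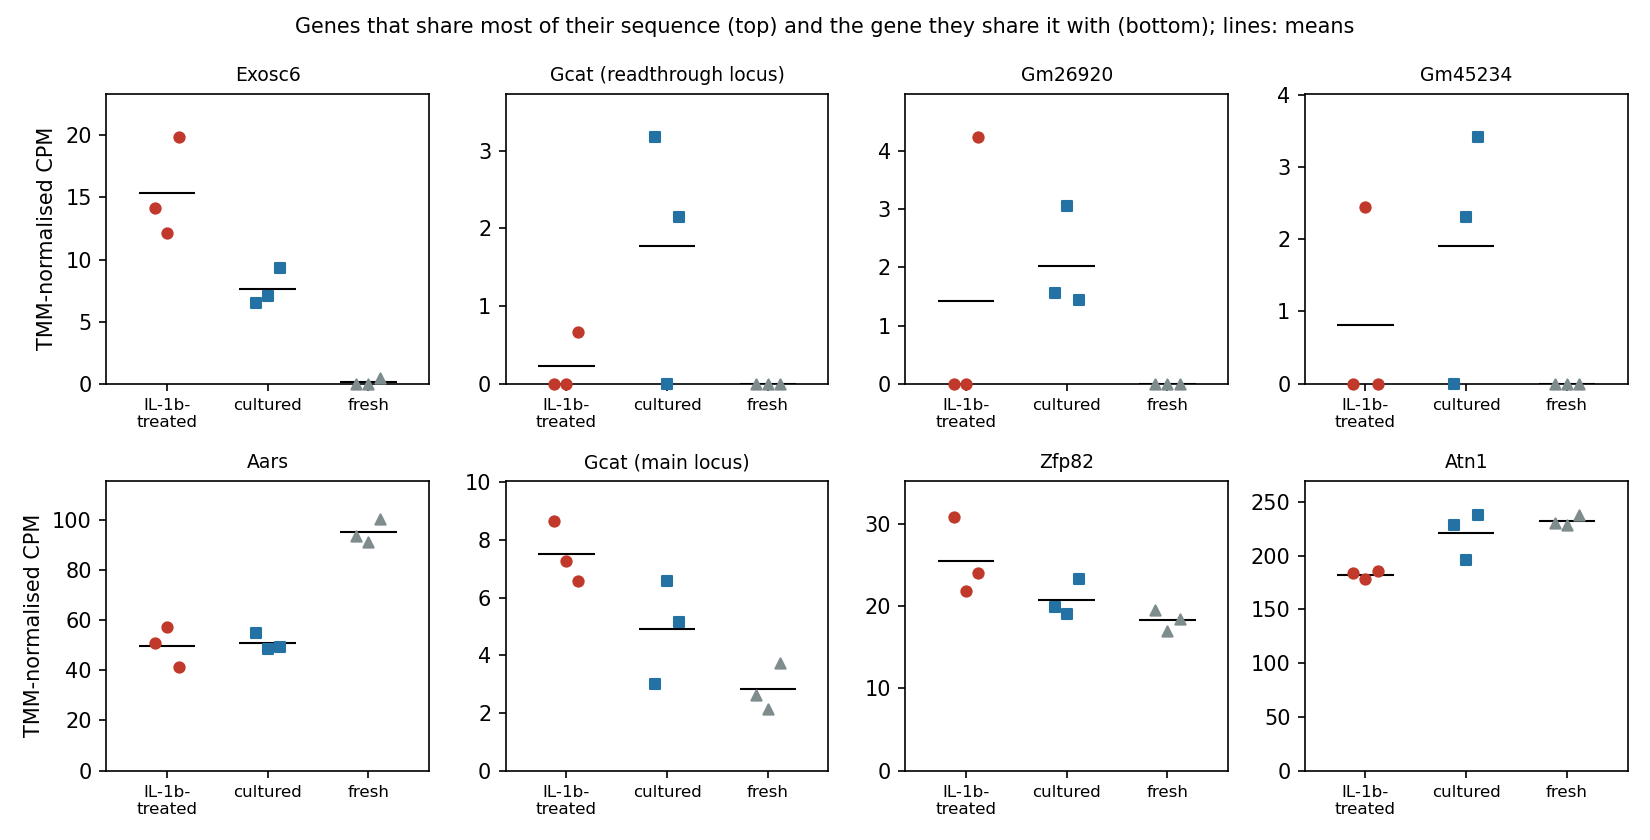
TMM-normalised CPM of 4 genes that share most of their sequence with other genes (top) and of the gene each shares most sequence with (bottom), with 1 point per library, lines at group means, and the groups IL-1b-treated, cultured and fresh from left to right. Exosc6 is near 0 in fresh cells, where Aars is highest, and the 3 readthrough loci each mix libraries at 0 with libraries above 0.6 CPM.

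TPM divide counts by an effective length that the quantifier estimates in each library from the transcripts it assigns, and for some of these genes that length varied between replicates. Lama5 had an effective length of 11171, 11174 and 11172 bases in IL-1b-treated libraries and 11162, 8303 and 2087 bases in cultured ones. Its TPM was 0.26, 0.43 and 0.50 in IL-1b-treated and 0.51, 0.59 and 3.66 in cultured cells, so that the high value of cultured replicate 3 goes with its short length there, while its CPM did not stand apart. Fsd1l had 6118, 1716 and 6692 bases in IL-1b-treated and 6533, 6420 and 6967 bases in cultured libraries. Dyrk4 had 869, 846 and 1107 bases in IL-1b-treated and 786, 752 and 752 bases in cultured libraries, a ratio of means of 1.23. Among 10906 genes with several transcripts that ratio had a median of 1.00 and a 5th to 95th percentile of 0.822 to 1.18. For Dyrk4 the sign of the fold change turned on the TPM scale, to -0.43 at log2(TPM + 0.5), against a median of -0.28 over all genes. Akr1c18 kept 983 to 986 bases in IL-1b-treated and 966 to 978 bases in cultured libraries. In fresh cells these lengths rest on at most 3 counts a gene.

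**Figure D4:**
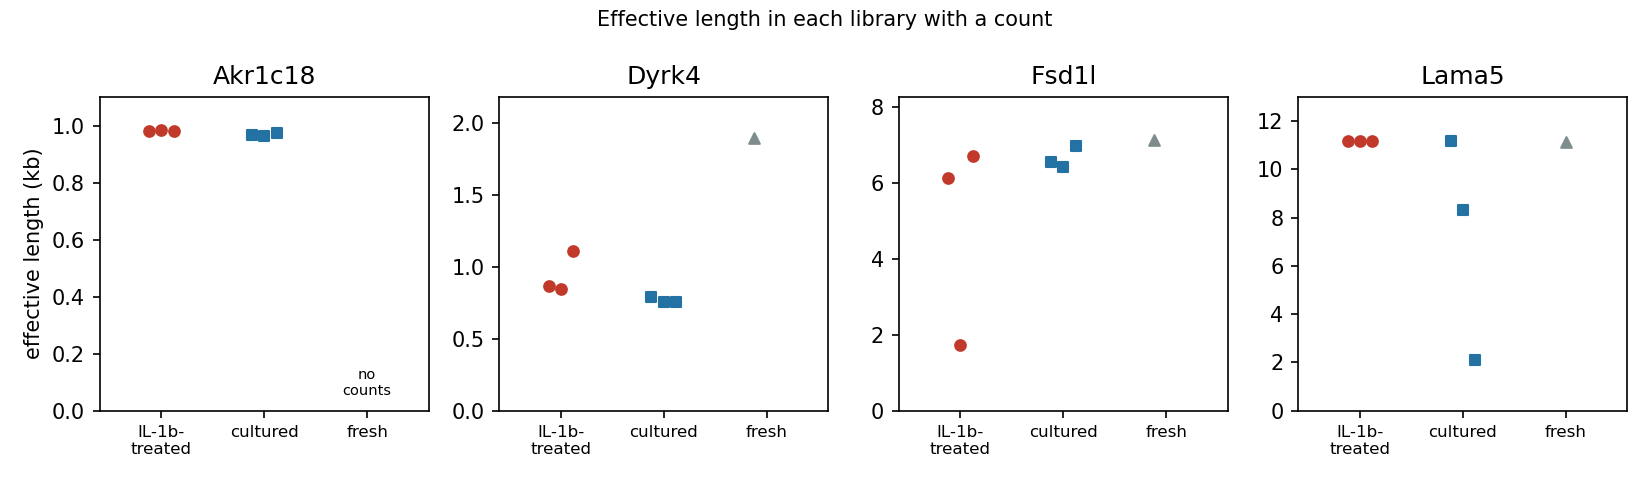
Effective length in kilobases of Akr1c18, Dyrk4, Fsd1l and Lama5 in each library with a count, for IL-1b-treated, cultured and fresh cells from left to right. Akr1c18 is even across libraries, whereas 1 IL-1b-treated library of Fsd1l and 2 cultured libraries of Lama5 lie well below the others.

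Genes near the thresholds had values much like those inside. Just inside the cultured threshold were Slc7a11, Kcnh4 and Gm10134 with 74.2, 75 and 81 counts in cultured cells, and just outside it were Syngr1, Samd14 and Fzd7 with 58, 58 and 57. Just inside the fresh threshold were Slc7a8, Abcb11 and Zbed5 with 10, 9 and 8.34 counts in fresh cells, and just outside it were Tmprss13, Syt6 and Gm5538 with 11, 11 and 14. Syt6 and Gm5538 had 105 and 124 counts in IL-1b-treated cells and 184 and 147 in cultured cells. The set in the opposite direction, protein-coding genes with at most 10 counts in cultured and at least 60 in fresh cells, was larger, with 103 genes. Of these, 78 had at most 10 counts and 1 had at least 60 in IL-1b-treated cells. It held 2 of 6 listed markers of myeloid cells (Csf1r, Lyz2) and 2 of 5 of neutrophils (Csf3r, S100a9). Of the other myeloid markers, Cst3 rose in cultured against fresh cells by 0.83 ± 0.08 on the log2 scale (adjusted p 1.43e-08) and Fcgr3 did not pass (0.24 ± 0.35, adjusted p 0.587). Itgam and Adgre1 fell, at -1.85 ± 0.33 (adjusted p 5.07e-05) and -4.04 ± 1.03 (adjusted p 0.00182). In all, 4 of the 6 myeloid markers were called lower and 1 higher, against 28.9% and 29.4% of all genes tested.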

How the data were processed

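Polyadenylated RNA of 9 libraries was measured. STAR, RSEM and the build mm10 are named in the submitters' processing notes, with versions not given in the sources used here. The expected counts and the TPM values were deposited by the authors, per the file headers, as were effective lengths in bases. FPKM values, also deposited, were not used. Of 55487 identifiers 55227 matched GENCODE M21 (GRCm38, the same assembly as mm10).

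Expected counts were rounded and tested in R 4.3.3 with edgeR 4.0.16 (filterByExpr, TMM scaling, quasi-likelihood F test in 1 model of the 3 groups, p-values adjusted after Benjamini-Hochberg, threshold 0.05). The filter kept 13043 genes, whose common biological coefficient of variation was 0.0665. Alternatives were other scalings and filters, DESeq2 1.42.0, limma 3.58.1 on log2(TPM + 0.5) and log2(TPM + 1), removal of each library's trend on effective length, a fit without the third group, a block for replicate number and leaving out each library. Replicate numbers were not used to pair the samples in the main fit, because the labels do not say what a number marks. Shared sequence is the percent of a gene's 50-base windows, over its GENCODE M21 transcripts, that occur in another gene. Genes at 0 in fresh cells are set against a floor of 3 counts over the group. That floor covers counting error only and not the choice of the genes by these counts.

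On simulated data with 200 changed genes, 61.2, 73.1 and 93.9% of 1.5, 2 and 4-fold changes were recovered between IL-1b-treated and cultured cells over 12735 genes, and 11 unchanged genes passed. These rates were not taken at the low level of the 19 genes and give no detection rate for them. The genes of the set, the marker and family lists and the tests were chosen with earlier results of these data known. By the rule for named genes, which takes the 20 of highest mean CPM in cultured cells, all 19 are named, with the 3 nearest genes on either side of each threshold. Of the list genes, those named are examples chosen after their values were seen. A further gene that meets the counts and 1 listed marker are not reported here. Tables and figures were made in Python 3.11.15 with pandas 2.3.3, numpy 2.4.6 and matplotlib 3.10.9.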

Additional observations from a re-analysis of the deposited data

How the results depend on the processing

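Over 20 other settings, 338 of 378 log2 fold changes of the 19 genes (IL-1b-treated over cultured) kept direction and call, 11 passed newly, 3 lost their call and 26 changed sign, none of them while called. The number of genes called, 1, was 2 under upper quartile scaling, library size alone, no filter and the replicate block, 1 to 3 when a library was left out, and 0 without the 4 genes that share over 10% of their sequence, a choice made after seeing the data. Same-numbered libraries deviated with correlations of -0.022 to 0.019, so no shared deviation by number was seen, which does not show that the samples were unpaired. With the block 3652 genes in all were called, against 3768. The set, 19 genes, held 34 with at most 20 counts in fresh cells, 9 with at least 100 and 50 with at least 30 in cultured cells, and 18 to 22 without a library.

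The values that changed sign were as follows, and the cause was not tested. On log2(TPM + 0.5) and log2(TPM + 1) AA467197 had -0.24 and -0.22, Abcb11 -0.0285 and -0.0253, Akr1c18 -0.0013 and -0.0017, Dyrk4 -0.43 and -0.39, Gm973 -0.18 and -0.16, and Socs2 -0.0042 and -0.0051, where the median of all genes was -0.28 and -0.25. With the length trend removed AA467197 had -0.31, Gm973 -0.0166 and Lama5 0.0597. AA467197 had -0.0048 under upper quartile scaling and -0.11 with library size alone. Leaving out 1 library at a time gave ranges of -0.17 to 0.12 for AA467197, -0.0716 to 0.57 for Dyrk4, -8.07 to 0.0844 for Gm26920, -0.0618 to 0.36 for Gm973, -0.33 to 0.0954 for Lama5 and -0.66 to 0.13 for Slc7a8. Of all genes called, 2037 higher and 1731 lower became 289 and 4475 on log2(TPM + 0.5), 1191 and 3273 with library size alone, and 1650 and 1300 with the length trend removed.

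The genes had 74.2 to 382 counts over the 3 cultured libraries, and 4 of them share 83.1 to 100% of their sequence. Signs of 9 genes turned under at least 1 setting. With 3 libraries a group, leaving out a single library changed the calls of Exosc6, Fsd1l, Gcat, Gm26920 and Gm45234. With all libraries kept, Gcat was also called under upper quartile scaling, library size alone, no filter and the replicate block. Exosc6 also lost its call on both TPM scales.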
